A study of Mus musculus with 12 samples.

Results

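Fibroblast growth factor (FGF) ligands and receptors were followed in rostral and caudal pieces of mouse cortex, taken from embryos of day 14. The members were the receptor genes Fgfr1, Fgfr2 and Fgfr3 and the ligand genes Fgf2, Fgf8, Fgf9, Fgf15, Fgf17 and Fgf18. All array probe sets annotated to 1 of these 9 genes and to no other gene were taken, 16 of the 34958 probe sets that name 1 gene. The study compared mice lacking AP2gamma, a transcription factor encoded by Tfap2c with wild-type mice. Knockout (KO) and wild-type (WT) embryos were each represented by 3 arrays per piece, 12 arrays in 4 groups. The rostral WT arrays came from animals 10, 12 and 16, the rostral KO arrays from animals 7, 8 and 15, the caudal WT arrays from animals 4, 6 and 14, and the caudal KO arrays from animals 1, 2 and 13. The strain, and whether the deletion was limited to certain cells, are not given in the sources used here. Whether a caudal and a rostral piece could come from the same embryo under different numbers is not given either, and the tests treat all arrays as separate.

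FGFs are secreted proteins that bind receptor tyrosine kinases together with heparan sulfate and activate the MAP kinase cascade. In the embryonic forebrain, Fgf8, Fgf17 and Fgf18 are made at the anterior midline, a patterning centre from which FGF signalling sets rostral cortical identity. Fgfr1, Fgfr2 and Fgfr3 are the receptor genes of cortical progenitors, and Fgfr3 is known for a graded pattern along the rostral to caudal axis.

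The region of origin was the main source of difference among these genes. Averaged over genotypes, Fgfr3 and Fgfr2 were higher in caudal cortex and Fgf15 was higher in rostral cortex, and these were the 3 of 6 tested member genes past the threshold. Of all 11785 tested genes, 3.64% passed in this comparison, by limma with Benjamini-Hochberg adjusted p under 0.05. In WT alone 2 of the 6 genes passed (0.594% of all genes), and in KO alone 1 did (0.552%). AP2gamma loss moved no member past the threshold in either piece, and 0% of all genes passed there. A probe set was tested where at least 3 of the 12 arrays lay above 5.21, the median of all log2 values of the table, and values at or below it are called dim. This left 10 of the 16 member probe sets and 6 of the 9 genes, while Fgf2, Fgf8 and Fgf17 were not tested. A gene was counted once, by the brightest of its tested probe sets, and no member was tested on the strength of a single group.

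Promoter sequence is shown for Fgfr3 and Fgfr2, the receptor genes that were higher caudally, and for Fgf18, the ligand gene whose KO and WT arrays separated in opposite directions in the pieces. The 250 bases before the annotated start come from RefSeq (GRCm38.p6), 5′ to 3′ on the strand of the gene. Capitals mark a match to the palindromic AP-2 motif, searched as GCC and GGC with any 3 or any 4 bases between them, which reads the same on either strand, so that both strands were covered.
Fgfr3, chr5:33721474-33721723, plus strand: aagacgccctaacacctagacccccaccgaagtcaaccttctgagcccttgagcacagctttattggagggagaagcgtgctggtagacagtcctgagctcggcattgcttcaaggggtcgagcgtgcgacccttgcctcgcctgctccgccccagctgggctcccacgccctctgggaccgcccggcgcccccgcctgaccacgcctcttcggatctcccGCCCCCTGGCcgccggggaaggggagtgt
Fgfr2, chr7:130266809-130267058, minus strand: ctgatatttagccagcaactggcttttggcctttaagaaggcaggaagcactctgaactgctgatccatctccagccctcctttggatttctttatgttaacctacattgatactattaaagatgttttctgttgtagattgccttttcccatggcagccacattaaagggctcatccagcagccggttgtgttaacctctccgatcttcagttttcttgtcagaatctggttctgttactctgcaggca
Fgf18, chr11:33147401-33147650, minus strand: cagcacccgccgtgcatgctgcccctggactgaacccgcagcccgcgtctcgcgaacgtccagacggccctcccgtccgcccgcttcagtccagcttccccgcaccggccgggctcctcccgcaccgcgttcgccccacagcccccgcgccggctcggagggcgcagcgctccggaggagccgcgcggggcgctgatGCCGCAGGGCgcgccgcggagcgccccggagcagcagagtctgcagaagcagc

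The table held 6 promoters for 5 of the 9 genes. Each of Fgfr3 and Fgf18 had 1 match with a 4-base spacer, which began 29 bases before the start in Fgfr3 and 53 bases before it in Fgf18. The second Fgfr3 start and the promoters of Fgfr2, Fgf2 and Fgf9 had no match in this window. Among all 32851 promoter windows of the same length, 12.3% held the 4-base form, 13.7% the 3-base form and 23.0% either of them. A match is a description of letters only.

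The arrays had medians between 5.21 and 5.22. Xist, which is expressed in female cells, was high only in caudal WT 6 (11.32) and rostral WT 12 (11.89). No KO array was high in it, so sex was not balanced between the genotypes in either piece. Tfap2c signal was lower in KO on all 3 of its probe sets, with 42.9% to 48.0% of the WT signal left caudally and 61.0% to 66.4% left rostrally. The labelled tissue held cortical markers, since all 6 measured of 7 (Emx1, Pax6, Neurog2, Eomes, Tbr1 and Neurod6) were above dim in every group. The pieces differed as labelled in the areal patterning gene Nr2f1, higher caudally by 2.03 ± 0.18 (SE, log2, adjusted p = 0.00017), and in Pax6, lower caudally (-0.42, adjusted p = 0.0030), while Emx2 (-0.06, adjusted p = 0.93) and Lhx2 (0.05, adjusted p = 0.91) did not pass. Some markers of tissue beside the cortex also moved with region. Of 4 tested genes on the list of the septum and anterior midline (6 listed), Zic1 (-2.91), Zic4 (at least 7.74-fold) and Six3 (at least 2.35-fold) were lower caudally. Their mean log2 level ran from 8.08 to 8.57 in rostral WT and from 7.78 to 9.22 in rostral KO, against 6.00 to 6.75 in caudal WT and 4.76 to 6.80 in caudal KO. Of 9 tested genes on the ganglionic eminence and interneuron list (11 listed), Isl1 (at least 3.67-fold), Dlx2 (-1.06) and Dlx1 (-1.16) were lower caudally. Lhx6, of migrating interneurons, lay the other way without passing (0.48, adjusted p = 0.079), with all caudal arrays above all rostral arrays within each genotype. In that direction 4.96% of all genes separated in WT and 8.78% in KO. The mean of that list ran from 6.95 to 7.70 in rostral WT and 6.78 to 8.28 in rostral KO, against 5.63 to 6.33 in caudal WT and 5.49 to 6.53 in caudal KO. Nkx2-1, which defines the medial eminence, was dim on all arrays. Of 6 tested genes on the list of the cortical hem and choroid plexus (10 listed), only Otx2 passed, lower caudally (at least 2.87-fold, adjusted p = 0.013). That list was split, with 3 genes below 0 and 3 above it, Clic6 (0.35), Folr1 (0.16) and Rspo2 (0.39).

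Rostral KO 15, caudal WT 6 and caudal KO 13 stood apart in such markers. On rostral KO 15 the mean of 4 tested genes of meninges and mesenchyme (9 listed) was 8.18, against 5.15 and 5.08 on rostral KO 7 and 8 and 4.96 to 5.97 on the arrays of the other groups. Its mean over 9 vascular genes was 7.08, against 6.35 to 6.78 on the 11 others. On caudal WT 6 the hem and choroid plexus mean was 7.03, against 5.13 and 3.87 on caudal WT 4 and 14, and Ttr, which defines the choroid plexus, read 13.63. Caudal KO 13 (7.33) was the only other array above dim for Ttr. Its mean over 3 tested thalamus and diencephalon genes (7 listed) was 5.46, against 6.40 to 6.89 on the 11 others. Its septum (4.76) and hem (2.82) means were the lowest of all arrays. Averaged over genotypes, the caudal minus rostral difference without rostral KO 15 was 1.58 for Fgfr3, 0.49 for Fgfr2 and -1.48 for Fgf15, and without caudal WT 6 it was 1.80, 0.46 and -1.79. All of these passed by limma (adjusted p from 0.00019 to 0.018). The same calls held without caudal KO 13.

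Fgfr3, a receptor tyrosine kinase of ventricular zone progenitors, was higher in caudal cortex in both genotypes. The gene lies at chr5:33721724-33737068 (GRCm38.p6). On its brighter probe set, 1421841_at, the log2 values were 10.47, 10.03 and 10.32 in caudal WT animals 4, 6 and 14, and 8.17, 8.73 and 8.30 in rostral WT animals 10, 12 and 16. In KO they were 10.21, 10.00 and 9.60 in caudal animals 1, 2 and 13 and 8.71, 8.59 and 7.70 in rostral animals 7, 8 and 15. Every caudal array lay above every rostral array, and the lowest rostral value belonged to KO animal 15. Such a separation was found in 4.96% of all genes in WT, 8.78% in KO and 0.815% over all 12 arrays. The caudal level was higher by 1.87 ± 0.25 (SE) in WT (3.67-fold, adjusted p = 0.0061) and by 1.60 ± 0.25 in KO (3.04-fold, adjusted p = 0.014). The KO call was lost without caudal KO 1 or caudal KO 2 (adjusted p up to 0.074 over the alternatives), with differences from 1.29 to 1.79 in them.

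The other Fgfr3 probe set, 1425796_a_at, showed the same order at a lower signal. Its values were 7.42, 7.43 and 6.98 in caudal WT against 5.36, 5.97 and 5.26 in rostral WT, and 7.29, 6.91 and 6.71 in caudal KO against 6.18, 5.91 and 5.15 in rostral KO. Caudal and rostral arrays again did not overlap, a separation of all 6 caudal from all 6 rostral arrays that 0.869% of tested probe sets showed in the caudal direction. This probe set was higher caudally by 1.75 ± 0.28 in WT (adjusted p = 0.017), and its 1.22 ± 0.28 in KO did not pass (adjusted p = 0.090). Of all probe sets 0.446% passed in WT, 0.437% in KO and 2.81% averaged over genotypes. Averaged over genotypes, the Fgfr3 probe sets differed by 1.74 ± 0.17 (3.34-fold, adjusted p = 0.00022) and 1.49 ± 0.20 (2.80-fold, adjusted p = 0.0018), and both passed under every alternative tried.

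Fgfr2, the receptor gene whose splice forms bind different ligand sets, was higher caudally by a smaller amount. Its brighter probe set, 1433489_s_at, read 9.01, 9.37 and 8.91 in caudal WT and 8.36, 8.53 and 8.47 in rostral WT. In KO the values were 8.87, 8.79 and 8.94 caudally and 8.52, 8.55 and 8.31 rostrally. All caudal arrays exceeded all rostral arrays, as for 0.815% of all genes, with caudal WT 6 the highest. The difference was 0.52 ± 0.09 averaged over genotypes (1.44-fold, adjusted p = 0.0070). In WT alone it was 0.64 ± 0.13 (adjusted p = 0.047), a call that held in 10 of 25 alternatives, and in KO alone 0.41 ± 0.13 (adjusted p = 0.21). The WT call was lost without rostral WT 10, 12 or 16, rostral KO 7 or 8, caudal WT 4 or 6, or caudal KO 1 or 2, and its adjusted p ran from 0.021 to 0.19.

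A second Fgfr2 probe set, 1420847_a_at, differed in the same direction by 0.58 ± 0.18 without passing (adjusted p = 0.12). Its values ran from 6.63 to 7.46 caudally and from 5.98 to 7.03 rostrally, so the pieces overlapped. The third, 1443211_at, was not tested, since only 2 arrays, caudal KO 1 (5.38) and caudal KO 13 (5.29), lay above 5.21.

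For Fgfr1, a receptor gene needed for growth of the anterior forebrain, the probe sets disagreed. The brightest, 1424050_s_at, read 8.74, 8.40 and 8.42 in rostral WT, 8.25, 9.03 and 8.43 in rostral KO, 8.23, 8.48 and 8.07 in caudal WT, and 8.13, 7.81 and 8.26 in caudal KO. Its pieces overlapped, and the difference of -0.38 ± 0.14 did not pass (adjusted p = 0.19). On 1425911_a_at the rostral values were 7.12, 6.89 and 7.09 in WT and 6.89, 6.91 and 6.84 in KO, and the caudal values 6.43, 6.22 and 6.25 in WT and 5.92, 6.32 and 6.51 in KO. Here all rostral arrays exceeded all caudal arrays, a pattern found for 1.69% of tested probe sets, and the caudal level fell by 0.68 ± 0.12 (adjusted p = 0.0082, passed in all 21 alternatives that could be fitted). The last, 1436551_at, differed by -0.10 ± 0.15 (adjusted p = 0.82), with an interval from -0.42 to 0.22. With the probe sets of a gene averaged, Fgfr1 passed as lower caudally.

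**Figure D1:**
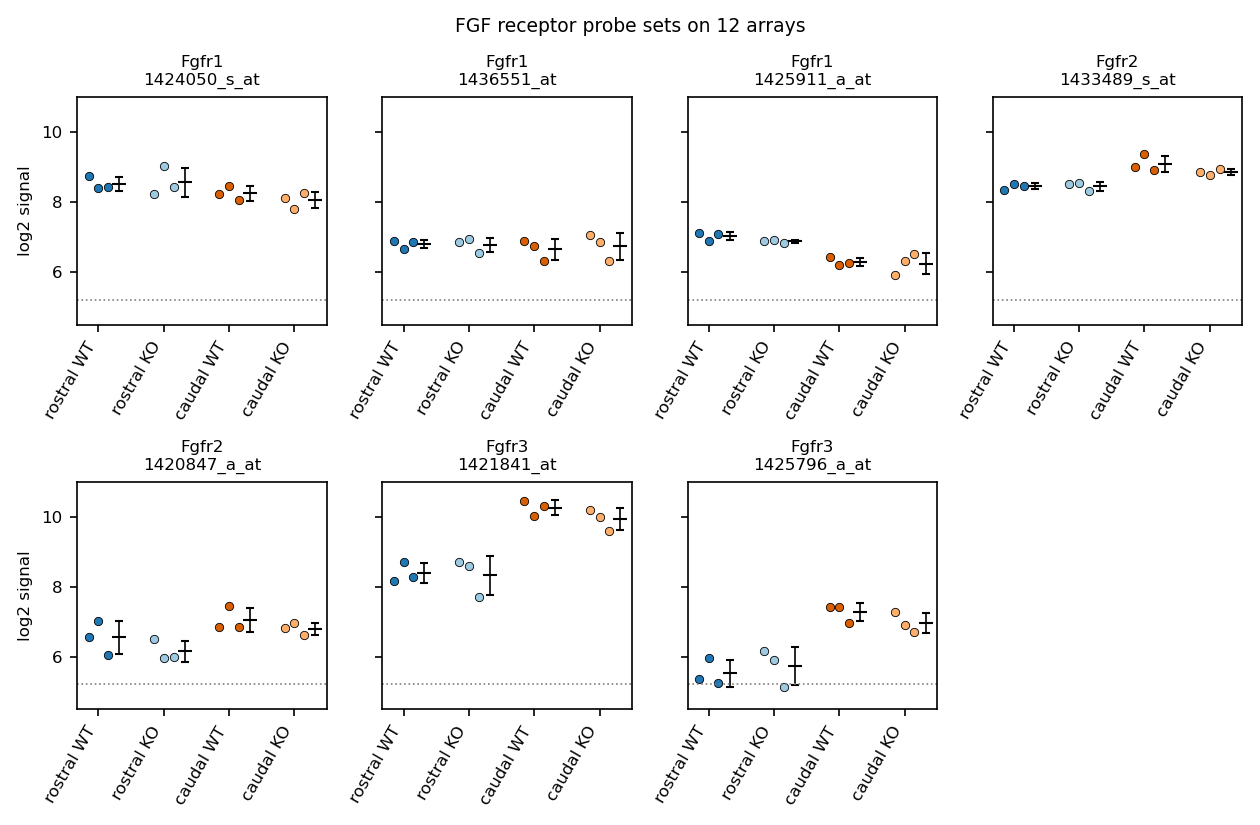
Log2 signal (vertical axis) of the 7 tested receptor probe sets by group (horizontal axis), with 1 point per array, the mean ± SD beside the points (n = 3) and a dotted line at 5.21. Both Fgfr3 probe sets and the brighter Fgfr2 probe set were higher on all caudal arrays, and of the Fgfr1 probe sets only 1425911_a_at was lower on all of them.

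Among the ligands, only Fgf15 was above the dim limit on all 12 arrays. It is the mouse counterpart of human FGF19 and promotes neuronal differentiation in the telencephalon. The gene lies at chr7:144896532-144900953 (GRCm38.p6). Its values were 8.13, 7.47 and 7.44 in rostral WT and 6.75, 7.94 and 8.87 in rostral KO, against 5.79, 6.00 and 5.64 in caudal WT and 6.75, 6.23 and 5.76 in caudal KO. Rostral arrays exceeded caudal arrays in each genotype and pooled, although rostral KO 7 and caudal KO 1 nearly met. Of all genes 2.38% separated so over all 12 arrays, 8.99% in WT and 12.1% in KO. The rostral KO arrays were the most spread (SD 1.06, against 0.39 in rostral WT). In caudal cortex Fgf15 fell by 1.74 ± 0.29 averaged over genotypes (3.34-fold, adjusted p = 0.0069), and this passed in all 24 alternatives. Within a genotype the differences of -1.87 ± 0.42 in WT (adjusted p = 0.079) and -1.61 ± 0.42 in KO (adjusted p = 0.13) did not pass. The WT difference passed without rostral KO 7 or 15, and the KO difference without rostral KO 7.

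Within rostral KO, Fgf15 had the same order as the septum and ganglionic eminence lists. Within caudal KO it had the order of the septum list only. On rostral KO arrays 7, 8 and 15, where Fgf15 read 6.75, 7.94 and 8.87, the mean of the septum and anterior midline list was 7.78, 8.60 and 9.22, and that of the ganglionic eminence list 6.78, 7.13 and 8.28. On caudal KO arrays 1, 2 and 13, where Fgf15 read 6.75, 6.23 and 5.76, the septum mean was 6.80, 5.79 and 4.76, and the ganglionic eminence mean 5.49, 6.19 and 6.53. The eminence list thus had the opposite order to Fgf15 there, while the septum list had the same order. In WT the septum list had the order of Fgf15 caudally, and neither list had it rostrally. The meninges and vascular means were also highest on rostral KO 15, where Fgf15 was highest and Fgfr3 lowest of the rostral arrays. The part of these tissues in the rostral level of Fgf15 was not tested. In a bulk piece of tissue, fewer cells of a type and less RNA per cell cannot be told apart.

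Fgf18, a ligand of the Fgf8 subfamily, was near the dim limit, and its rostral and caudal arrays were apart in WT only. The gene lies at chr11:33116970-33147400 (GRCm38.p6). It read 6.61, 6.16 and 6.40 in rostral WT and 4.66, 2.95 and 5.13 in caudal WT, where all arrays were dim. In KO it read 6.01, 5.91 and 5.36 rostrally and 5.62, 5.55 and 5.36 caudally. The WT pieces did not overlap, the KO pieces did, and caudal WT 6 stood lowest. In WT, 8.99% of all genes lay lower caudally without overlap. In WT the rostral level was at least 2.26-fold higher, with a measured difference of -2.14 ± 0.44 for caudal minus rostral that did not pass (adjusted p = 0.057). Over the alternatives that p lay between 0.015 and 0.23, and it was under the threshold in 7 of 24, among them those without caudal WT 6 or 14. The fit with dim values raised to 5.21 was another of these 7, with no spread left in caudal WT. In KO the difference was -0.25 ± 0.44 (adjusted p = 0.89). Averaged over genotypes it was -1.20 ± 0.31 (adjusted p = 0.065), or -0.71 (adjusted p = 0.010) with dim values raised to 5.21. In the raised fit every caudal WT value was 5.21, a group without spread, so its smaller p is not stronger evidence. The averaged difference passed in 8 of 23 alternatives, the raised fit included. Among them were the fit without caudal WT 6 (-0.87, adjusted p = 0.027) and that without caudal WT 14 (-1.42, adjusted p = 0.024).

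Fgf9, a ligand produced by neurons and glia, lay around the dim limit. Its tested probe set read 5.36, 5.15 and 5.52 in rostral WT, 4.62, 5.75 and 5.60 in rostral KO, 4.94, 5.08 and 4.54 in caudal WT, and 5.38, 5.23 and 4.22 in caudal KO. The WT pieces were just apart, as for 8.99% of all genes in this direction, with all caudal WT arrays dim. The KO pieces overlapped. The caudal level differed by -0.44 ± 0.27 (adjusted p = 0.51), with an interval from -1.03 to 0.15, and by -0.20 with dim values raised to 5.21. The other Fgf9 probe set exceeded 5.21 on a single array, rostral KO 8 (5.47), and was not tested.

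The remaining ligands were dim. Fgf17, which patterns dorsal frontal cortex, read 5.16, 5.76 and 2.56 in rostral WT, 3.75, 4.88 and 5.73 in rostral KO, 3.27, 4.34 and 2.41 in caudal WT, and 4.70, 4.09 and 2.64 in caudal KO on its brighter probe set. Only rostral WT 12 and rostral KO 15 lay above the limit there, and all arrays were dim on the other. Fgf8, the main organiser signal of the anterior midline, read 0.94, 3.43 and 3.38 in rostral WT, 1.40, 0.59 and 4.35 in rostral KO, and from -0.14 to 1.03 caudally. Fgf2, which supports the division of radial glia, read from 1.86 to 3.57 rostrally and from -0.55 to 2.99 caudally. All arrays of both genes were dim, and the pieces overlapped over all 12 arrays. In WT alone the Fgf2 pieces were apart (3.17 to 3.57 rostrally, -0.05 to 2.99 caudally), as for 8.99% of tested genes in this direction. These genes have no fold here, since both pieces were dim or nearly so. Tested without the filter, caudal minus rostral was -2.00 ± 0.68 for Fgf8 (adjusted p = 0.22), -1.62 ± 0.69 for Fgf2 (adjusted p = 0.37), and -1.06 ± 0.59 (adjusted p = 0.54) and -2.26 ± 0.65 (adjusted p = 0.13) for the Fgf17 probe sets. None passed.

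**Figure D2:**
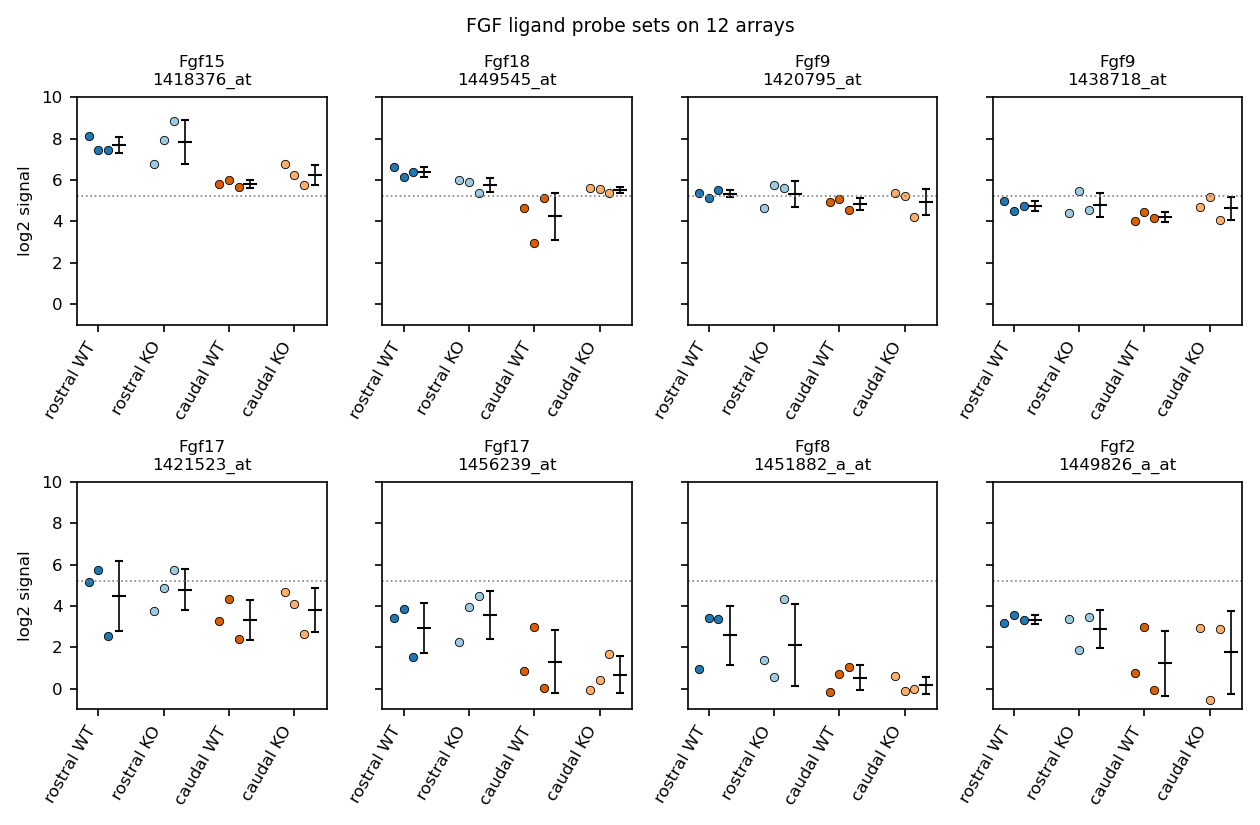
Log2 signal (vertical axis) of all 8 ligand probe sets by group (horizontal axis), with 1 point per array, the mean ± SD beside the points (n = 3) and a dotted line at the dim limit of 5.21. Fgf15 was above the limit on all arrays, Fgf18 was below it on all caudal WT arrays, and Fgf8 and Fgf2 were below it everywhere.

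The order of the groups followed region for the members that passed, which were called for their region difference on these same arrays. For Fgfr3 the means fell from caudal WT (10.27 ± 0.22 SD, n = 3) and caudal KO (9.94 ± 0.31) to rostral WT (8.40 ± 0.29) and rostral KO (8.33 ± 0.55), and neighbours within a piece overlapped. For Fgf15 rostral KO (7.86 ± 1.06) and rostral WT (7.68 ± 0.39) stood above caudal KO (6.25 ± 0.49) and caudal WT (5.81 ± 0.18), again with overlap within each piece. Fgfr2 ran from caudal WT (9.10 ± 0.24) and caudal KO (8.87 ± 0.08) to rostral KO (8.46 ± 0.13) and rostral WT (8.45 ± 0.09). Fgf18 had another order, with rostral WT (6.39 ± 0.22) first, then rostral KO (5.76 ± 0.35), caudal KO (5.51 ± 0.13) and caudal WT (4.24 ± 1.15), and only the neighbours rostral KO and caudal KO overlapped. For these genes animals 13 to 16, 1 per group, gave region differences of the same sign as animals 1 to 12: 1.96 and 1.63 for Fgfr3, 0.53 and 0.52 for Fgfr2, -2.45 and -1.38 for Fgf15, and -0.64 and -1.48 for Fgf18. These arrays also gave the calls. Fgfr1 1436551_at turned sign (-0.40 and 0.05). KO effects averaged over regions turned for Fgfr3 (-0.66 and 0.03), Fgf18 (-0.40 and 0.68), Fgf9 (-0.12 and 0.11) and Fgfr1 (0.10 and -0.16). Those of Fgfr2 (-0.06 and -0.13) and Fgf15 (0.78 and 0.07) kept their sign.

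Loss of AP2gamma left the members within the spread of the arrays in most groups. Averaged over regions, the KO effect was -0.20 ± 0.17 for Fgfr3 (interval -0.58 to 0.17), -0.11 ± 0.09 for Fgfr2 (-0.30 to 0.08) and -0.07 ± 0.14 for Fgfr1 (-0.37 to 0.23). It was 0.31 ± 0.29 for Fgf15 (-0.33 to 0.94), 0.32 ± 0.31 for Fgf18 (-0.36 to 0.99, but -0.17 with dim values raised to 5.21 and -0.01 without caudal WT 6) and 0.04 ± 0.27 for Fgf9 (-0.56 to 0.63). No member passed by limma (adjusted p from 0.84 to 0.99), and none had an unadjusted p under 0.05. Of all genes 0.017% passed and 850 had an unadjusted p under 0.05. An equal level is not shown by these intervals.

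Within a piece, again no member passed. In caudal cortex 0% of genes passed by limma and 462 had an unadjusted p under 0.05, among them 1 member, Fgf18. In rostral cortex 0% passed and 756 had such a p, none of them a member. Caudal Fgfr3 differed by -0.34 ± 0.25 in KO and caudal Fgfr2 by -0.23 ± 0.13, with adjusted p = 1.00 for each.

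Fgf18 was the member whose KO effects went apart. In caudal cortex each KO array lay above each WT array (1.27 ± 0.44, unadjusted p = 0.013, adjusted p = 1.00), or at least 1.23-fold higher, since the WT arrays were dim. Of all genes 3.84% separated in this direction. In rostral cortex each KO array lay below each WT array (-0.63 ± 0.44, adjusted p = 0.85), as did 7.5% of all genes. The caudal KO effect exceeded the rostral KO effect by 1.89 ± 0.63 (unadjusted p = 0.0097, adjusted p = 1.00), or 0.93 with dim values raised. It did not pass, and 340 of the tested genes had an unadjusted p under 0.05 there while 0% passed. KO arrays above WT caudally and below WT rostrally, without overlap in either, were found for 18 of 11785 genes (0.153%). Separation in opposite directions, whichever piece was higher, was found for 29 (0.246%). Without caudal WT 6 the caudal effect was 0.62 and the difference 1.25. All 6 tested hem and choroid plexus genes were below 0 for caudal KO minus WT (median -1.45, none passed by limma). With dim values raised their differences ran from -0.84 (Folr1) to -0.08 (Wnt3a). Of all 11785 genes, 5956 were below 0. Other lists also leaned below 0 caudally, with 3 of 3 tested thalamus and diencephalon genes (median -0.52). So did 3 of 4 on the septum list (-0.40) and 3 of 4 on the meninges list (-0.21). On the ganglionic eminence and vascular lists 6 of 9 were above 0. Rostrally all tested genes of the thalamus, septum and meninges lists were above 0, and 4 of 6 hem genes were below it. The hem list means were 5.18, 3.45 and 2.82 on caudal KO 1, 2 and 13. On caudal WT 4, 6 and 14 they were 5.13, 7.03 and 3.87, so the genotypes overlapped, with caudal WT 6 highest. Ttr, which was not tested, was above dim on caudal KO 13 (7.33), where the list mean was lowest. The part of these markers in the Fgf18 values was not tested. These comparisons share the KO and WT arrays with the region comparisons above.

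**Figure D3:**
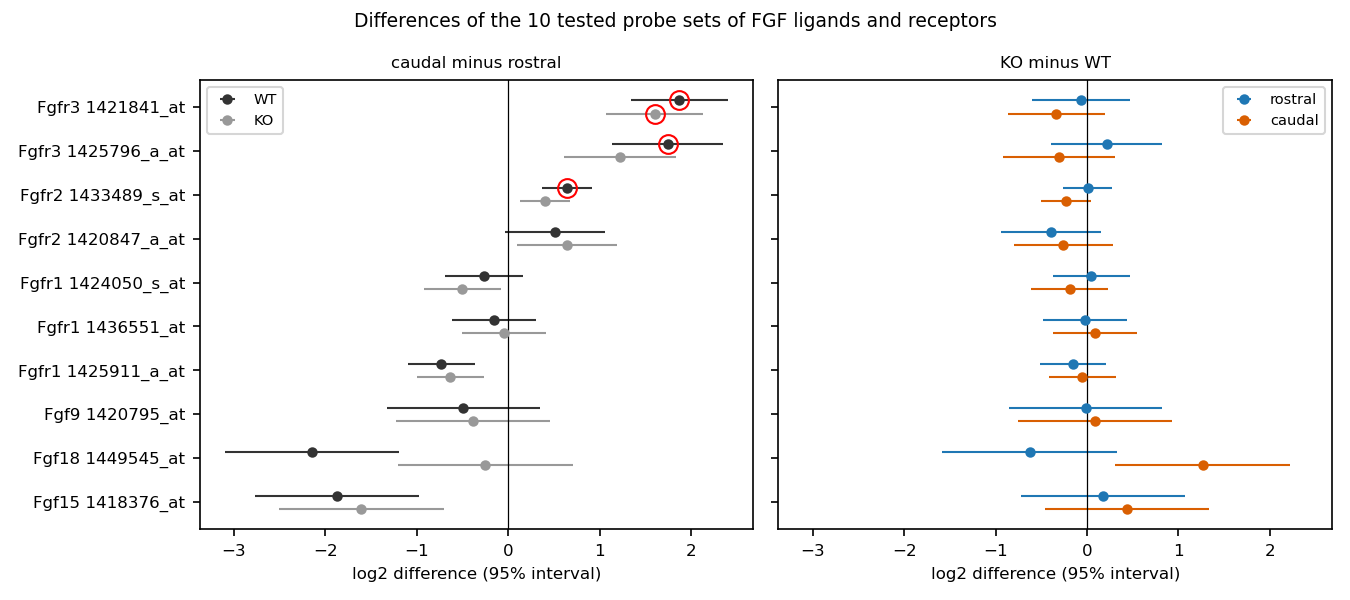
Log2 differences (horizontal axis) with 95% intervals for the 10 tested member probe sets (vertical axis), caudal minus rostral in WT and in KO on the left and KO minus WT in each piece on the right. Red circles mark an adjusted p under 0.05, which 4 region differences reached and no KO effect did.

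The other genes of the FGF pathway were read from lists chosen by function. Of 11 tested feedback and target genes (14 listed), 7 were lower in caudal cortex averaged over genotypes and none was higher. Of all genes 2.7% passed as lower and 0.942% as higher. The list had a median of -0.57, with -0.02 over all genes. The call with the smallest p was Il17rd, which encodes the receptor-bound FGF inhibitor Sef (-1.88 ± 0.19, adjusted p = 0.00026). It was followed by Etv5, an ETS factor induced by FGF (-1.24 ± 0.15, adjusted p = 0.00097), Sp8, a rostral patterning factor (-1.84 ± 0.23, adjusted p = 0.0010), and the Sprouty-related inhibitor gene Spred2 (-0.46 ± 0.08, adjusted p = 0.0097). Dusp6, a phosphatase of the MAP kinase ERK, Spry1 and Spred1, named after their values were seen, completed the 7. Without rostral WT 10 or rostral KO 8, 4 of the 11 passed. In WT alone 2 of the 11 passed (0.594% of all genes) and in KO alone 3 (0.552%), all lower caudally. AP2gamma loss moved none, with 0% of all genes passing in either piece.

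Carriers and co-receptors of FGFs differed in both directions. Of 6 tested (9 listed), Fgfbp3, which encodes an FGF-binding protein that releases ligands from the matrix, was lower caudally (-1.55 ± 0.16, adjusted p = 0.00022). Flrt3 (1.01 ± 0.11, adjusted p = 0.00055) and Flrt2 (0.49 ± 0.11, adjusted p = 0.029), which encode membrane proteins known to bind FGF receptors, were higher caudally. Of 20 tested genes (23 listed) of heparan sulfate synthesis and its carriers, 3 were higher caudally and 2 lower. The sulfotransferase gene Hs3st1 (-0.81 ± 0.08, adjusted p = 0.00017) and the sulfatase gene Sulf2 (-1.06 ± 0.20, adjusted p = 0.012) were lower. Hs6st2 (0.60 ± 0.13, adjusted p = 0.022) and Gpc4 (0.34 ± 0.08, adjusted p = 0.029) were higher, as was Hs2st1, named after its values were seen. The list's median was -0.07.

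Intracellular parts of the pathway showed little. Of 13 tested adaptor and kinase genes (19 listed), only the docking protein gene Gab1 passed, higher caudally (0.39 ± 0.08, adjusted p = 0.020), with a median of 0.03. None of the 4 FGF homologous factors, which stay inside the cell and bind sodium channels, passed by limma (smallest adjusted p = 0.30, for Fgf11). Of the 12 other secreted ligands 1 was tested, Fgf4 (-0.08, adjusted p = 0.89), and the others were dim on at least 10 of 12 arrays.

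**Figure D4:**
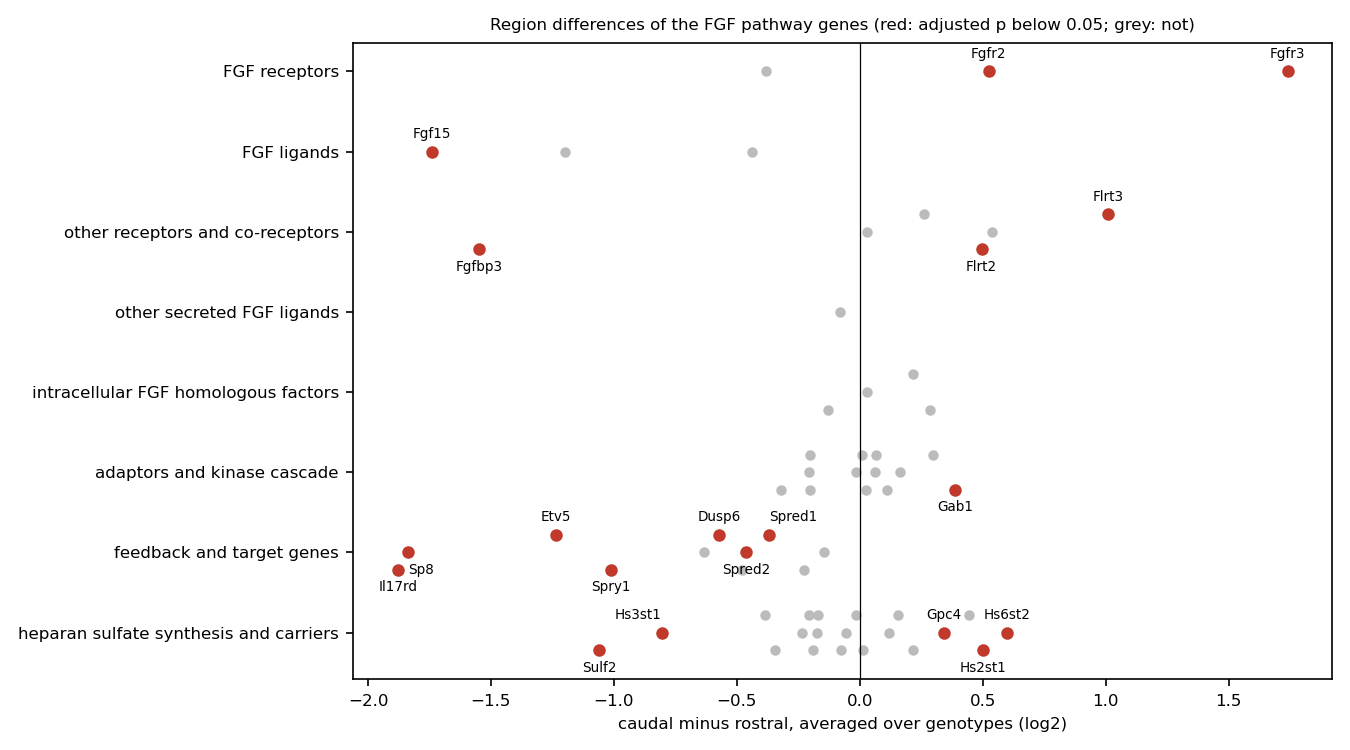
Caudal minus rostral log2 difference averaged over genotypes (horizontal axis) for each tested gene of the FGF lists (vertical axis), with genes of adjusted p under 0.05 in red and named. All 11 feedback and target genes lay below 0 (Spry4, partly dim, at 0.06 with dim values raised), while receptors, co-receptors and heparan sulfate genes lay on both sides.

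For each member gene that passed, the genes of most similar course over the 12 arrays were listed, the highest Pearson r among all tested genes. Fgfr3 was closest to Nr2f1 (r = 0.974, Spearman rho 0.958), Rbm20 (r = 0.958, rho 0.930) and Slf1 (r = 0.956, rho 0.811). Fgfr2 was closest to the Wnt receptor gene Fzd7 (r = 0.925, rho 0.916), Rprm (r = 0.919, rho 0.937) and Met (r = 0.891, rho 0.874), and Fgf15 to Dusp26 (r = 0.977, rho 0.965), Pnoc (r = 0.972, rho 0.916) and Asb4 (r = 0.961, rho 0.972). The arrays share their region, so the values include the difference between the pieces, and no p is given because the genes were selected for r.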

How the data were processed

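Total RNA (400 ng) was amplified and given a biotin label, per the labels' protocols. The authors deposited 1 log2 value per probe set and array. The unit and base were read from the values (-3.81 to 14.02), and background correction, normalisation and summarisation are not given in the sources used here. Probe sets were named with the platform annotation, which left out 932 that name several genes and 9211 without a name. Tested were 21288 probe sets (11785 genes) above 5.21 on at least 3 of 12 arrays. The filter used all groups together.

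With limma 3.58.1 in R 4.3.3, 1 mean per group was fitted over all 12 arrays, and the moderation of variances used a trend on intensity, with 8 residual and 5.00 prior degrees of freedom. Two-sided p-values were adjusted over all tested probe sets by Benjamini-Hochberg (threshold 0.05), separately in each of 7 comparisons. Differences carry SEs or 95% intervals. Where all 3 arrays of a group were dim, a fold is a lower limit from a fit with values raised to 5.21. The same was done for Zic4, whose caudal group means (4.87 in WT, 3.46 in KO) were below 5.21 though not all arrays were. The labels give 1 animal number per array and p-values measure the spread between these arrays, and the 3 per group limit precision. The fit was tested on artificial arrays with known differences. Named are all members, in each pathway list up to 4 genes that passed (where none did, at most 3 by p), the 3 genes closest to each passing member, and the checks Tfap2c, Xist, Nr2f1, Emx2, Lhx2, Sp8 and Pax6. Members, lists and alternatives were chosen with earlier results of these data known. The groups share no animal numbers.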

Additional observations from a re-analysis of the deposited data

Results flagged for a closer look

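For Fgf18 the KO and WT arrays separated in opposite directions in the pieces. Every caudal KO array lay above every caudal WT array, as for 3.84% of all genes. Every rostral KO array lay below every rostral WT array, as for 7.5% of all genes. Both separations together were found for 0.153% of all genes. All caudal WT arrays were dim for Fgf18. The caudal KO effect minus the rostral KO effect was 1.89 (unadjusted p = 0.0097). It did not pass by limma over all tested probe sets (adjusted p = 1.00). With dim values raised to the dim limit, this difference was 0.93.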

How the results depend on the processing

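No paired analysis was possible because the groups share no animal numbers. Averaged over genotypes, Fgfr3, Fgfr2 and Fgf15 passed as region differences in all 24 alternatives, and the count of 3 members rose to 5 with the probe sets of a gene averaged. In WT alone the 2 members became 4 with animals 13 to 16 as a term, and 1 with no filter, no intensity trend, animals 1 to 12 only or without animals 6 and 12. Leaving out 1 array gave 1 to 3 there, with 1 without rostral WT 10, 12 or 16, rostral KO 8, caudal WT 4 or caudal KO 1 or 2. Fgfr3 was past the threshold in WT each time. In KO alone the 1 member, Fgfr3, became 0 with no intensity trend or only the 2 groups compared, and leaving out 1 array gave 0 to 2, with 0 without caudal KO 1 or 2 and 2 without rostral KO 7. The 7 feedback genes became 4 to 7. No member passed for AP2gamma loss or for the difference of KO effects in any alternative. Of 711 recomputed single differences 14 turned sign, none of them past the threshold in either fit. The cause of these changes was not tested. A gene near or below the dim limit (Fgf18, Fgf9, Fgf17, Fgf8, Fgf2) is limited by signal.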
